A study of Mus musculus with 40 samples.

Results

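Cytosolic heat shock genes were followed through a bulk RNA-seq experiment on mouse macrophages that had been differentiated from bone marrow with the growth factor M-CSF (BMDMs). The 10 genes are Hspa1a, Hspa1b, Hspa8, Hsph1, Dnajb1, Hsp90aa1, Hsp90ab1, Hspb1, Hsf1 and Bag3, and all 10 were found by symbol among the 43430 genes of the deposited table. They were chosen by symbol with no threshold on a measured value, but they were proposed with results of these data known, so the tests that follow describe these libraries and are not independent support.

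WT BMDMs came from 5 mice that carried VAV-Cre, a Cre recombinase expressed in blood-forming cells and their progeny, without the NDI1 construct. NDI1 BMDMs came from 5 mice that carried VAV-Cre together with a lox-stop-lox-NDI1 construct in the Rosa26 locus. Piericidin A blocks mitochondrial complex I, and NDI1, a yeast enzyme that oxidizes NADH in its place, is resistant to it. All 40 libraries are labelled with the strain C57/Bl6, while the study's methods give the line carrying the NDI1 construct as mixed from the J and N substrains. The mice were 8 to 14 weeks old and of both sexes. From every mouse there was an untreated library, a library after 4 h of LPS (100 ng ml–1), the bacterial lipopolysaccharide that macrophages sense through TLR4, a library with 500 nM piericidin A, and a library with piericidin A added 30 min ahead of LPS. This gave 8 groups of 5 libraries, 40 in all, and the 4 libraries of a mouse were grown from the marrow of that mouse. The question asked of the heat shock genes was whether piericidin A changed their mRNA, whether NDI1 altered that change, and how LPS bore on both.

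Heat shock proteins are chaperones that hold or refold unfolded polypeptides. In unstressed cells the transcription factor HSF1 is kept inactive by chaperones. When unfolded proteins occupy these chaperones, HSF1 forms trimers, binds repeated nGAAn units (heat shock elements) in promoters and drives the inducible chaperones. Hspa1a and Hspa1b encode inducible HSP70, Hspa8 the constitutive HSP70, Dnajb1 an HSP40 that stimulates the ATPase of HSP70, Hsph1 an HSP110 that exchanges its nucleotide, and Bag3 a BAG-domain co-chaperone linked to selective autophagy. Hsp90aa1 and Hsp90ab1 encode the inducible and the constitutive cytosolic HSP90, and Hspb1 encodes a small heat shock protein. In macrophages HSP90 is known for maturing kinases of inflammatory signalling.

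The promoters of 4 members are shown because Hspa1a, Hspa1b and Hspb1 had the largest changes with piericidin A, whereas Hsph1 was called for LPS but not for piericidin A in any comparison (the first of its 2 entries is shown). Hsph1 also carries the longest heat shock element found among the members with an entry, which lies after the start and so outside the line shown. Each line gives the 250 bases before the start of the RefSeq entry (GRCm38.p6), 5′ to 3′ on the gene's strand, and capitals mark GAANNTTC or TTCNNGAA, a pair of inverted heat shock units searched on both strands. The entries, which run on for 50 bases after the start, span chr17:34972107-34972406 for Hspa1a, chr17:34959189-34959488 for Hspa1b, chr5:135887669-135887968 for Hspb1 and chr5:149636287-149636586 for Hsph1.
Hspa1a: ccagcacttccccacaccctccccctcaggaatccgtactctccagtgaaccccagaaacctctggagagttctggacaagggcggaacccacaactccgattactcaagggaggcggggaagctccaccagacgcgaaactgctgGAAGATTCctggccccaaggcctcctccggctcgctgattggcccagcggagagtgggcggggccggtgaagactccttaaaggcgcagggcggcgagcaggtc
Hspa1b: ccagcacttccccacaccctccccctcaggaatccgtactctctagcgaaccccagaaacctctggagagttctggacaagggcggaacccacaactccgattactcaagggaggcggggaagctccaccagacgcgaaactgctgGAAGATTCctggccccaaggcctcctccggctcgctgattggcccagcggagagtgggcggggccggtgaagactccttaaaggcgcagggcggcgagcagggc
Hspb1: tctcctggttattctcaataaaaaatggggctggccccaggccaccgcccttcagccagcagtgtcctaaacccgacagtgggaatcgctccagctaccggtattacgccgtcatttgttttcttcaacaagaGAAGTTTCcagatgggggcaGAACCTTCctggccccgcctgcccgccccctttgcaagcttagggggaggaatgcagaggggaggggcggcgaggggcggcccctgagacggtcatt
Hsph1: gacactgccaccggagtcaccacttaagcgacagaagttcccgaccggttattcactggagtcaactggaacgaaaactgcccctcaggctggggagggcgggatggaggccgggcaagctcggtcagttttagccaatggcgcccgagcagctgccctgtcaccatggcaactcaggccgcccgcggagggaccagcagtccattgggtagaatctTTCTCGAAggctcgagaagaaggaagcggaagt

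The upstream sequences of Hspa1a and Hspa1b differed at 3 of 250 positions, and each held 1 pair of units, at positions −104 to −97 with the start counted as 0. The Hspb1 promoter held 2 pairs and that of Hsph1 held 3, of which 2 overlap each other after the start and form TTCNNGAANNTTC, a run of 3 units, at positions 36 to 48. The pair occurred in 15.1% and the run of 3 units (either strand, always with the pair inside it) in 0.603% of 32851 mouse promoters of the same 300 bases. Dnajb1 had 2 entries with no pair, and Bag3 had 1 pair after its start, at positions 42 to 49. For the entries of these genes the bases just after the start were not found in a GENCODE transcript of the gene. The second Dnajb1 entry (chr8:83608298-83608597) lies inside the gene (chr8:83608175-83611902). Their starts are thus uncertain, and the lack of a pair may not describe the Dnajb1 promoter. The table matched 6 of the 10 members, and Hspa8, Hsp90aa1, Hsp90ab1 and Hsf1 had no entry in it. These are matches of letters, and binding was not measured.

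The members lie on 7 chromosomes, with coordinates given by the deposited table (mm10). Hspa1a (ENSMUSG00000091971, chr17:34969190-34972156, minus strand) and Hspa1b (ENSMUSG00000090877, chr17:34956436-34959238, minus strand) are genes of a single exon, 9952 bases apart. Of the 75-base windows of their transcripts, 61.7% for Hspa1a and 55.8% for Hspa1b also occur in another gene, and 1524 windows occur in both. Reads from those windows may have been left out or split by the authors' counting, so the pair is also given as a sum. The same holds for Hspa8 (68.6% of windows shared), Hsp90aa1 (53.1%) and Hspb1 (47.3%), which have processed copies elsewhere in the genome, while Hsp90ab1 shared 0.736% and Hsph1, Dnajb1, Hsf1 and Bag3 shared 0. A second annotated gene, Gm20481, overlaps the exon of Hspa1a on the other strand and had 0 counts in all 40 libraries.

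Libraries held between 6950748 and 13552070 counts (median 10361773.5). Levels are CPM, which set a count against the TMM-scaled total of its library, and a gene is called changed when its Benjamini-Hochberg adjusted p from edgeR's quasi-likelihood test over 11853 genes is under 0.05. The summed level of 7 macrophage markers was between 19259 and 37714 CPM in every library. The summed level of 7 neutrophil markers ranged from 11.9 to 2646 CPM and was highest in all 4 libraries of mouse 496 (WT, 436 to 2646 CPM) and of mouse 503 (NDI1, 416 to 815 CPM), against at most 167 CPM in the others. The piericidin A effect on inducible HSP70 without LPS and some calls near the threshold are therefore also given without these mice. Within mice the sum also moved with treatment. With piericidin A it was higher in 5 of 5 WT mice (1.14 to 3.33 times) and 4 of 5 NDI1 mice (0.806 to 1.5 times), and with LPS in 5 of 5 mice of each genotype (1.32 to 2.31 and 1.15 to 2.77 times). With both agents it was higher than with LPS alone in 5 of 5 WT mice (1.43 to 2.62 times) and 4 of 5 NDI1 mice (0.942 to 1.40 times). The part of this in the changes described next was not tested. T cell markers summed to at most 14.4 CPM, B cell markers to 11.6, dendritic cell markers to 16.9, mast cell markers to 11.1, erythroid markers to 0.126 and stromal markers to 110 CPM. In such bulk samples fewer cells of a type and less RNA per cell cannot be told apart.

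Piericidin A raised the mRNA of inducible HSP70 in untreated WT BMDMs and left most other members near their untreated level. Of the 10 members, 4 rose and none fell (14.8% of all tested genes were called in either direction). One of the 4, Hspb1, passed the filter on low counts mainly through the treated WT libraries, so 3 of the 9 other members are what can be read against that share. Hspa1a was at 1.63, 1.43, 2.44, 1.35 and 3.87 CPM in the untreated libraries of WT mice 449, 452, 453, 496 and 520. With piericidin A it was at 111, 30.6, 109, 135 and 55.1 CPM in the same mice. Every treated library was above every untreated one, and mice 452 and 520 had the lowest treated levels. The mean went from 2.14 ± 1.06 to 88.0 ± 43.3 CPM (SD, n = 5), a log2 fold change of 5.34 (SE 0.37, 95% interval 4.58 to 6.09), which is 40.4-fold (edgeR, adjusted p = 1.2e-12). Ranked by fold change, Hspa1a was number 4 of the 11853 genes. Scaling by library totals alone moved the median of all genes by −0.128 and the share of called genes that were higher from 52.5% to 22.7%, and the 4 members were still higher under it (Hsp90aa1 with adjusted p = 0.058).

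Hspa1b, the neighbouring copy that encodes nearly the same protein, was at 2.61, 2.43, 3.79, 3.82 and 6.09 CPM in untreated WT libraries, in the same order of mice. With piericidin A it was at 96.6, 31.2, 106, 115 and 45.9 CPM. The groups did not overlap (5.56% of genes were higher without overlap), and the same 2 mice were the lowest. The rise was 20.9-fold, from 3.75 ± 1.46 to 79.0 ± 37.9 CPM (SD, n = 5; log2 fold change 4.39, SE 0.36, edgeR adjusted p = 4.6e-11). As a sum over both genes, inducible HSP70 went from 5.89 ± 2.45 to 167 ± 80.9 CPM. The treated library with the most neutrophil marker RNA, from mouse 496, also had the highest sum (249 CPM). Mouse 453 was at 215 CPM with a neutrophil sum of 47.4 CPM. Without mice 496 and 503 the log2 fold changes were 5.01 for Hspa1a (edgeR, adjusted p = 2e-09) and 4.22 for Hspa1b (adjusted p = 6.9e-08).

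**Figure D1:**
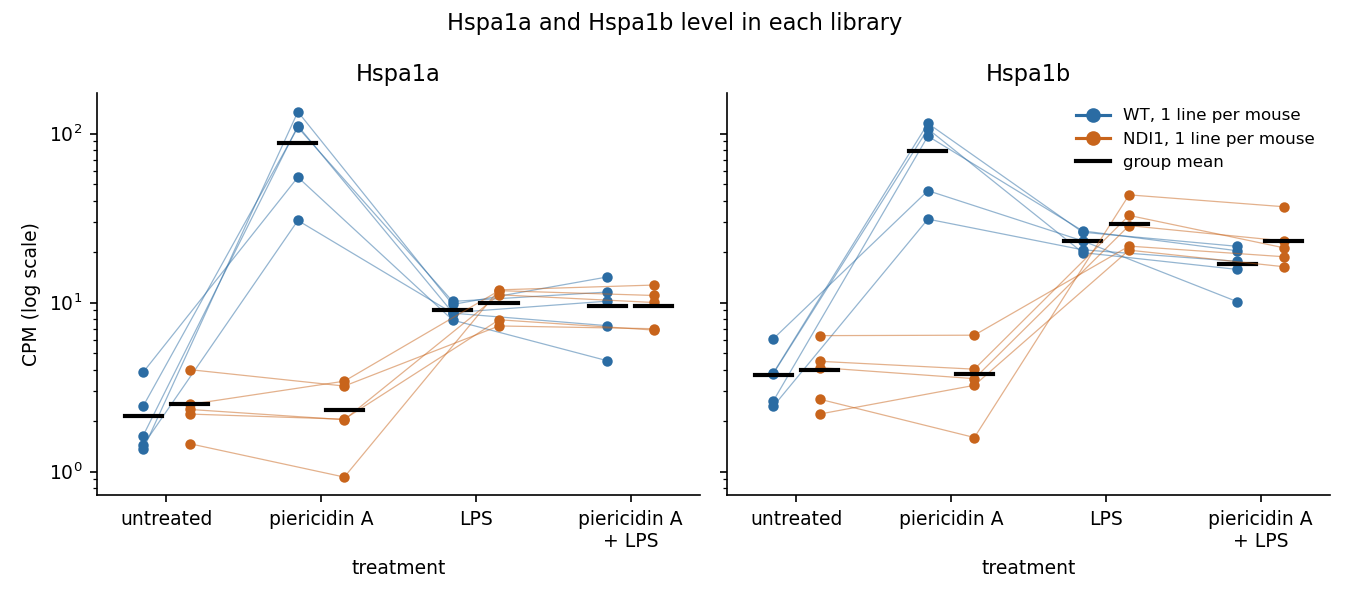
Levels of Hspa1a and Hspa1b in CPM (log axis) in the 8 groups of 5 libraries. Points are libraries, lines join the 4 libraries of a mouse and black bars are group means. The WT libraries with piericidin A alone sit at 30.6 to 135 CPM for Hspa1a, above all libraries of the other 7 groups, which reach at most 14.2 CPM. For Hspa1b those libraries sit at 31.2 to 115 CPM, and the lowest of them (mouse 452) lies below 3 NDI1 libraries with LPS, at 32.8, 36.9 and 43.4 CPM.

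Hspb1, the small heat shock protein, was barely detected, with 206 counts over the 40 libraries. It was counted 3, 1, 7, 6 and 2 times in the untreated WT libraries and 14, 14, 33, 28 and 4 times with piericidin A. The groups overlapped, since mouse 520 had fewer treated reads than mice 453 and 496 had untreated reads. It rose from 0.277 ± 0.193 to 1.44 ± 0.907 CPM (SD, n = 5), with a log2 fold change of 2.36 (SE 0.70, edgeR adjusted p = 0.02). It passed the filter on low counts in 5 libraries, 4 of them WT with piericidin A, so a gene kept in this way had to differ there, and the call was lost without mouse 449 (edgeR adjusted p = 0.051) or mouse 452 (adjusted p = 0.057). Without mouse 496 the gene no longer passed the filter.

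Hsp90aa1, the inducible HSP90, was at 88.0, 80.2, 88.1, 111 and 87.1 CPM in untreated WT and at 111, 106, 135, 171 and 97.8 CPM with piericidin A. It was higher in 5 of 5 mice, though the groups overlapped, and mouse 496 was the highest in both. The log2 fold change was 0.45 (SE 0.14, 95% interval 0.16 to 0.74, edgeR adjusted p = 0.027). The call was lost without mouse 449 (adjusted p = 0.062), 453 (0.073) or 496 (0.061), with scaling by library totals (0.058), with no filter on low counts (0.058), with the compared libraries alone (0.065) and with a log2 threshold of 1, and without mice 496 and 503 the log2 fold change was 0.39 (adjusted p = 0.048).

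The other 6 members did not pass the test. Hspa8, the constitutive HSP70, was at 411 to 570 CPM in untreated WT and 467 to 665 CPM with piericidin A, a log2 difference of 0.18 (edgeR adjusted p = 0.41). Hsp90ab1, the constitutive HSP90, was at 555 to 720 and 659 to 784 CPM, a log2 difference of 0.20 (adjusted p = 0.25), and was higher in 5 of 5 mice. With the mouse as a block, which removes differences between cultures, both passed (edgeR adjusted p = 0.037 for Hspa8 and 0.018 for Hsp90ab1), in a fit that called 34.2% of all genes. The 95% intervals of the log2 differences were −0.27 to 0.37 for Hsph1, −0.15 to 0.31 for Dnajb1, −0.14 to 0.30 for Hsf1 and −0.28 to 0.13 for Bag3, so changes of the size of Hspa1a were outside each of them.

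**Figure D2:**
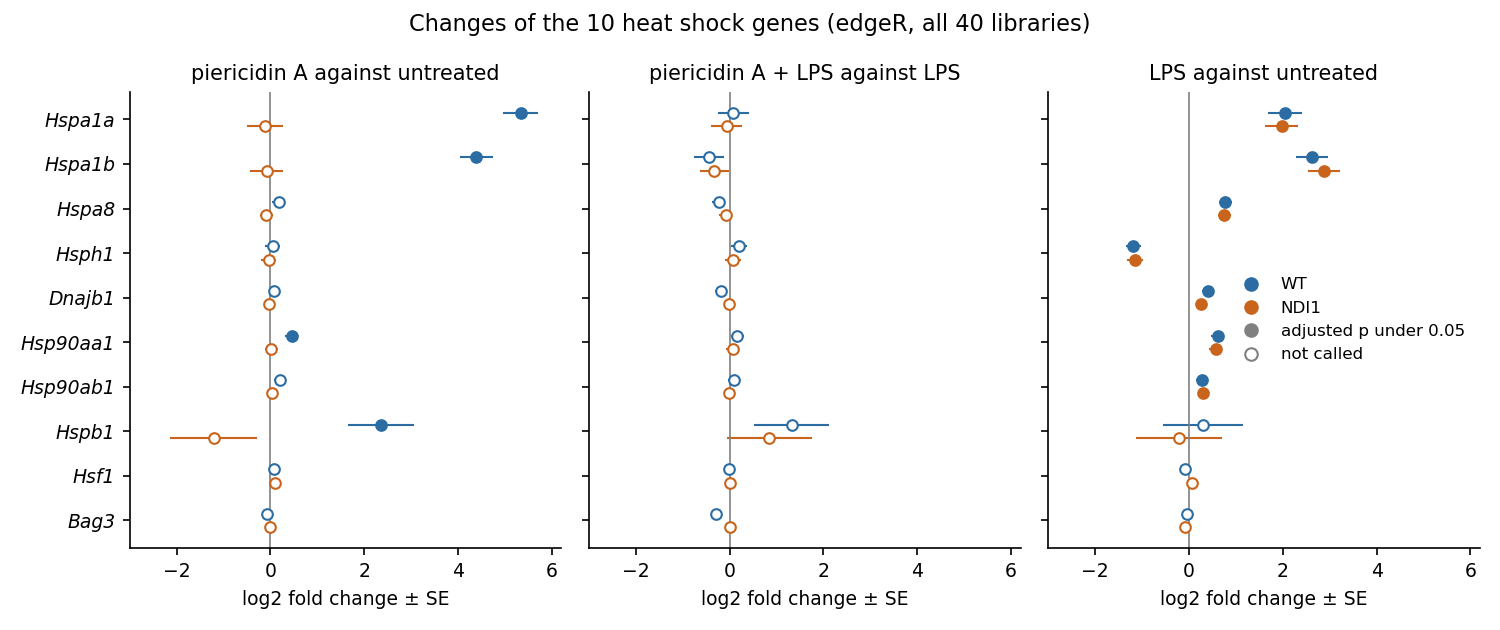
Log2 fold changes of the 10 members with their standard errors, in each comparison. Filled points had an adjusted p under 0.05 in edgeR's test with TMM scaling. Hspa1a and Hspa1b stand at 5.34 and 4.39 for piericidin A in untreated WT and near 0 for the same treatment in NDI1. For LPS, Hspa8, Dnajb1, Hsp90aa1 and Hsp90ab1 are above 0 here and below 0 when scaled by library totals alone.

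In NDI1 BMDMs none of the 10 members passed the test for piericidin A. In that comparison edgeR and DESeq2 both called 0 of all tested genes (0%), with 58 genes at an unadjusted p under 0.05 in edgeR. Hspa1a was at 2.19, 2.49, 1.46, 2.33 and 4.01 CPM in untreated libraries of NDI1 mice 447, 460, 461, 503 and 521. It was at 2.04, 3.42, 0.927, 2.03 and 3.20 CPM with piericidin A. The groups overlapped, and 1 of 5 mice was higher with the inhibitor. The 95% interval of the log2 difference was −0.88 to 0.65 for Hspa1a and −0.81 to 0.64 for Hspa1b, which was at 2.19 to 6.37 CPM untreated and 1.59 to 6.41 CPM treated.

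The effect of piericidin A differed between the genotypes for 2 of the 10 members (1.27% of all genes). The difference, NDI1 minus WT, was −5.45 on the log2 scale for Hspa1a (SE 0.52, edgeR adjusted p = 1.3e-08) and −4.47 for Hspa1b (SE 0.49, adjusted p = 4e-07), and without mice 496 and 503 it was −5.11 and −4.27 (adjusted p = 5.6e-06 and 0.00012). For Hspb1 and Hsp90aa1 the difference was −3.57 and −0.44 with adjusted p = 0.14 and 0.39, and both passed with the mouse as a block (edgeR adjusted p = 0.0097 and 0.034, in a fit that called 8.96% of genes), Hspb1 under the limit set by the filter on low counts.

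Compared directly under piericidin A, 4 of 10 members were lower in NDI1 than in WT BMDMs (7.8% of all genes were called in either direction). This contrast shares its WT libraries with the one above. The log2 fold change was −5.24 for Hspa1a (edgeR adjusted p = 1.8e-12), −4.39 for Hspa1b (7.6e-11), −3.68 for Hspb1 (0.0025) and −0.48 for Hsp90aa1 (0.03). Hspa1a, Hspa1b and Hspb1 did not overlap between the genotypes (3.28% of genes were lower without overlap). Hspb1 was counted 0 to 3 times in the NDI1 libraries, so its fitted fold change depends on the prior count. Since 4 of the 5 libraries through which it passed the filter were WT with piericidin A, it had to differ here, and its call and its lack of overlap are given as a description. Hsp90aa1 was at 68.9 to 98.9 CPM in NDI1 against 97.8 to 171 in WT, and its call was lost without mouse 453 (adjusted p = 0.05), 460 (0.11), 461 (0.086) or 496 (0.1), without mice 496 and 503 (0.099), with the compared libraries alone (0.12), with no filter on low counts (0.055) and with a log2 threshold of 1. Hspa8 (−0.31, adjusted p = 0.16) passed only without mouse 503 (adjusted p = 0.024).

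Without piericidin A the genotypes were not told apart. Untreated and LPS-treated NDI1 BMDMs had 0 of 10 members called against WT, as for all tested genes (0% in edgeR, 0 genes in DESeq2, with 39 and 141 genes at an unadjusted p under 0.05). Among the members other than Hspb1, the widest 95% interval in these comparisons was −0.56 to 0.98, for untreated Hspa1a.

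With LPS in WT, 6 members rose and 1 fell, a share near that of all genes (62.5% were called), and in NDI1 the same 7 were called in the same directions (62.7%). Some of these directions depended on the scaling. With library totals alone Hspa8, Dnajb1, Hsp90aa1 and Hsp90ab1 were below 0 in both genotypes. Of these, Dnajb1 (edgeR adjusted p = 0.0023 in WT, 7.3e-05 in NDI1) and Hsp90ab1 (5.6e-06, 1.7e-05) were called lower, as were Hsf1 (−0.86 in WT, −0.71 in NDI1) and Bag3 (−0.81, −0.84), while Hspa8 (adjusted p = 0.99, 0.88) and Hsp90aa1 (0.19, 0.11) did not pass. Inducible HSP70 rose with LPS in each genotype. Hspa1a was at 8.71, 8.65, 10.2, 9.74 and 7.87 CPM in the LPS-treated WT libraries and at 7.90, 11.8, 11.9, 11.1 and 7.27 CPM in those of NDI1 mice. All 10 were above every untreated library of their genotype. The rise was 4.15-fold in WT (log2 fold change 2.05, SE 0.36, edgeR adjusted p = 5.5e-06) and 3.95-fold in NDI1 (adjusted p = 8e-06). Hspa1b was at 19.7 to 26.5 CPM in WT and 20.4 to 43.4 CPM in NDI1, also without overlap with untreated cells (26% and 24.8% of genes were higher without overlap). It rose 6.14-fold in WT (edgeR adjusted p = 2.6e-08) and 7.33-fold in NDI1 (3.8e-09).

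Hsph1, the HSP110 nucleotide exchange factor, fell with LPS. It was at 32.7, 25.7, 37.0, 33.9 and 30.6 CPM in untreated WT and at 15.2, 12.5, 18.5, 15.0 and 8.93 CPM after LPS. The groups did not overlap, and each mouse was lower with LPS (23.8% of genes were lower without overlap). The log2 fold change was −1.18 in WT (SE 0.17, edgeR adjusted p = 1e-07) and −1.15 in NDI1 (adjusted p = 1.9e-07). Its direction was thus opposite to that of Hspa1a and Hspa1b, with TMM scaling and with library totals alone. Hspa8 went the other way from Hsph1 with TMM scaling but not with library totals alone. Scaling by library totals moved the median of all genes by −0.778 in WT and −0.77 in NDI1.

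Hspa8, Hsp90aa1, Dnajb1 and Hsp90ab1 rose less with TMM scaling, and did not rise with library totals alone. Both scalings are relative, and RNA per cell was not measured. Hspa8 was at 773, 800, 766, 989 and 951 CPM with LPS in WT against 411, 476, 499, 570 and 538 CPM untreated. These groups did not overlap, and the fold change was 1.72 (log2 0.78, edgeR adjusted p = 7.2e-06). Hsp90aa1 rose 1.53-fold (adjusted p = 0.00031), Dnajb1 1.32-fold (0.0024) and Hsp90ab1 1.21-fold (0.036) in WT with TMM scaling, whereas with library totals alone the log2 fold changes of Hspa8, Hsp90aa1, Dnajb1 and Hsp90ab1 were −0.0016, −0.17, −0.38 and −0.52, above the median gene but below 0. That scaling also moved the share of called genes that were higher from 50.4% to 18% in WT and from 50.2% to 18.1% in NDI1. The NDI1 log2 fold changes with TMM scaling were 0.75 for Hspa8, 0.57 for Hsp90aa1, 0.30 for Hsp90ab1 and 0.26 for Dnajb1, and all 4 were below 0 with library totals alone. The call of Dnajb1 in NDI1 (edgeR adjusted p = 0.048) was lost without any of mice 449, 453, 460, 461, 503 or 520 (0.057 to 0.33), that of Hsp90ab1 in WT without 449, 453 or 496 (0.051 to 0.12), and that of Hsp90ab1 in NDI1 (adjusted p = 0.021) without 461 or 503 (0.072 and 0.067). These 3 calls were also lost with no filter on low counts (edgeR adjusted p = 0.086 to 0.18), with at least 10 counts in every library (0.077 to 0.16) and with the compared libraries alone (0.1 to 0.24). With RLE factors those of Dnajb1 in NDI1 (0.075) and Hsp90ab1 in WT (0.054) were lost, as they were without mice 496 and 503 (0.27 and 0.075), and with DESeq2 that of Dnajb1 in NDI1 (0.077). With the mouse as a block all 3 passed (0.00021 to 0.015).

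The transcription factor Hsf1 and the co-chaperone Bag3 did not pass the test for LPS with TMM scaling. Hsf1 was at 15.2 to 19.2 CPM in untreated WT and 13.2 to 17.7 CPM with LPS, a log2 difference of −0.09 (95% interval −0.31 to 0.14). Bag3 was at 56.6 to 65.3 and 55.7 to 67.8 CPM, a difference of −0.04 (−0.25 to 0.16). The effect of LPS was not told apart between the genotypes for any member, as for all tested genes (0% in edgeR, 0 genes in DESeq2, 63 genes at an unadjusted p under 0.05).

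**Figure D3:**
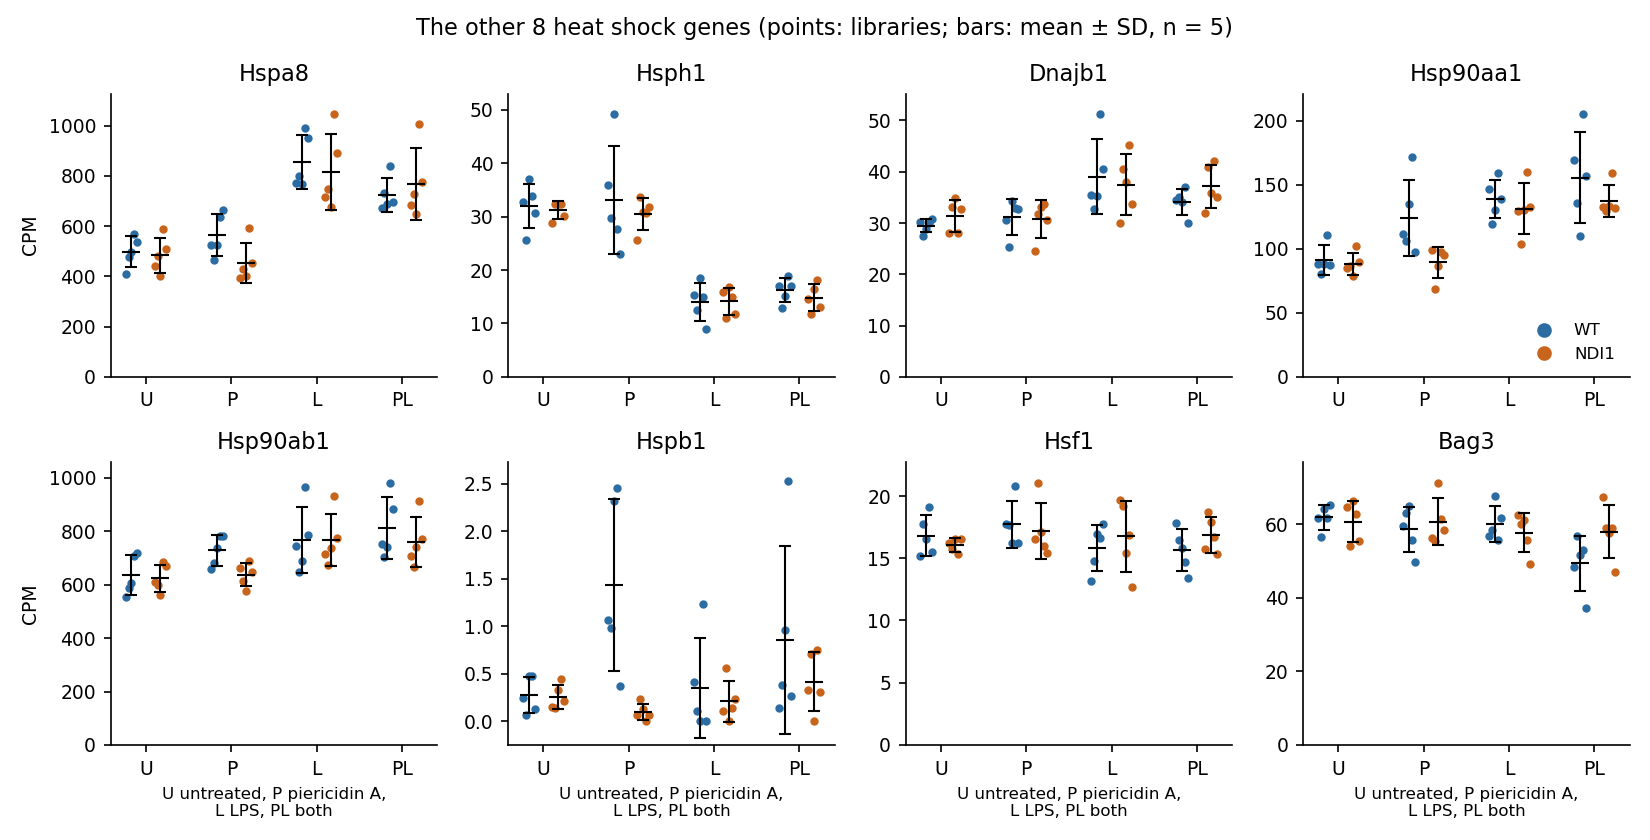
Levels of the 8 members other than Hspa1a and Hspa1b in the 8 groups, in CPM with TMM scaling, as points for libraries with the mean ± SD (n = 5). Hsph1 is lower in all LPS-treated groups (14 to 16.2 CPM on average) than in the groups without LPS (30.5 to 33.1 CPM), and Hspb1 stays under 3 CPM in every library. The rise of Hspa8, Dnajb1, Hsp90aa1 and Hsp90ab1 with LPS seen here is below 0 with library totals alone.

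When BMDMs received LPS as well, piericidin A did not change inducible HSP70 detectably. In LPS-treated WT cells 0 of 10 members were called, against 16.7% of all genes. At an unadjusted p under 0.05 only Bag3 passed. Hspa1a was at 10.2, 7.29, 11.5, 14.2 and 4.52 CPM with LPS and piericidin A in mice 449, 452, 453, 496 and 520, which overlapped the LPS-only libraries. The log2 difference was 0.08 (95% interval −0.60 to 0.75, edgeR adjusted p = 0.9), so a change of the size seen without LPS lay outside the interval. Hspa1b was at 20.2, 17.5, 15.7, 21.5 and 10.1 CPM. It was lower than with LPS alone in 5 of 5 mice, yet the groups overlapped and the log2 difference of −0.44 did not pass (adjusted p = 0.35). In NDI1 Hspa1b was also lower in 5 of 5 mice with both agents, with a log2 difference of −0.33 that did not pass.

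The treatments were thus not additive for this pair. Piericidin A changed the LPS effect in WT by −5.26 on the log2 scale for Hspa1a (SE 0.48, edgeR adjusted p = 5.9e-09) and −4.83 for Hspa1b (SE 0.47, adjusted p = 1.3e-08), the 2 of 10 members called (4.75% of all genes). The same contrast gives the change of the piericidin A effect by LPS. In WT treated with piericidin A, adding LPS was accompanied by a mean of 9.54 ± 3.74 CPM for Hspa1a in place of 88.0 ± 43.3 CPM (SD, n = 5). In NDI1 the corresponding values were 0.05 (95% interval −0.96 to 1.06) and −0.25 (−1.21 to 0.72), and 0 genes of any kind were called (0% in edgeR, 0 in DESeq2, 78 at an unadjusted p under 0.05).

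Bag3 and Hspa8 lay near the threshold for piericidin A in LPS-treated WT. Bag3 was at 48.4, 56.8, 51.7, 53.1 and 37.2 CPM with both agents and at 56.9, 58.5, 67.8, 55.7 and 61.6 CPM with LPS alone. It was lower in 5 of 5 mice, with mouse 520 the lowest, and the log2 difference was −0.28 (SE 0.10, edgeR adjusted p = 0.053). It passed with the mouse as a block (adjusted p = 0.013), with DESeq2 (0.04) and without mouse 452 (0.037) or 521 (0.042). Hspa8 was also lower in 5 of 5 mice, at 674 to 841 CPM against 766 to 989, a log2 difference of −0.24 (edgeR adjusted p = 0.24, and 0.0066 with the mouse as a block, in a fit that called 34.5% of genes). Its change of the LPS effect, −0.41, passed with the block only (adjusted p = 0.24 without and 0.0024 with it, where 17.4% of genes were called). In LPS-treated NDI1 cells 0 of 10 members and 0 genes were called by edgeR (0%) and DESeq2, with 127 genes at an unadjusted p under 0.05. Hspa8 was lower in 5 of 5 NDI1 mice too, with a log2 difference of −0.09. The genotypes did not differ detectably in the piericidin A effect under LPS for any member (0 of 10, against 0.979% of all genes), nor in their level with both agents (0 of 10, against 12%).

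The 2 inducible HSP70 genes did not contribute in constant proportion. Hspa1a made up 35.9% ± 5.53 of the reads of the pair in untreated WT (SD, n = 5, 52 to 157 reads per library) and 52.4% ± 2.23 with piericidin A (886 to 3066 reads). The share was higher in 5 of 5 mice, and the groups did not overlap, with 26.2% to 39.1% untreated and 49.5% to 54.6% treated. The mean difference was 16.5 percentage points (two-sided exact sign-swap permutation test within mice, p = 0.0625, the smallest that 5 mice allow, and 0.109 adjusted over 7 such tests). In NDI1 the share was 39.1% ± 6.2 untreated and 38.2% ± 4.71 with piericidin A, a difference of −0.923 points (exact permutation p = 0.875). Between LPS with piericidin A and LPS alone the share differed by 6.99 points in WT, higher in 4 of 5 mice (exact permutation p = 0.125, adjusted p = 0.146), and by 3.59 points in NDI1, higher in 5 of 5 mice (exact permutation p = 0.0625, adjusted p = 0.109).

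LPS moved the share the other way. It was 28.2% ± 3.76 in WT and 25.8% ± 2.67 in NDI1 with LPS alone. Over the 10 mice the mean difference was −10.5 points, with 9 of 10 mice lower (two-sided exact permutation p = 0.00391, adjusted p = 0.0273). Of the 7 tests, that over the 10 mice was the one that passed after adjustment. These shares rest on the reads that the authors' counting gave to either copy, and how reads of the shared windows were treated is not given in the sources used here.

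**Figure D4:**
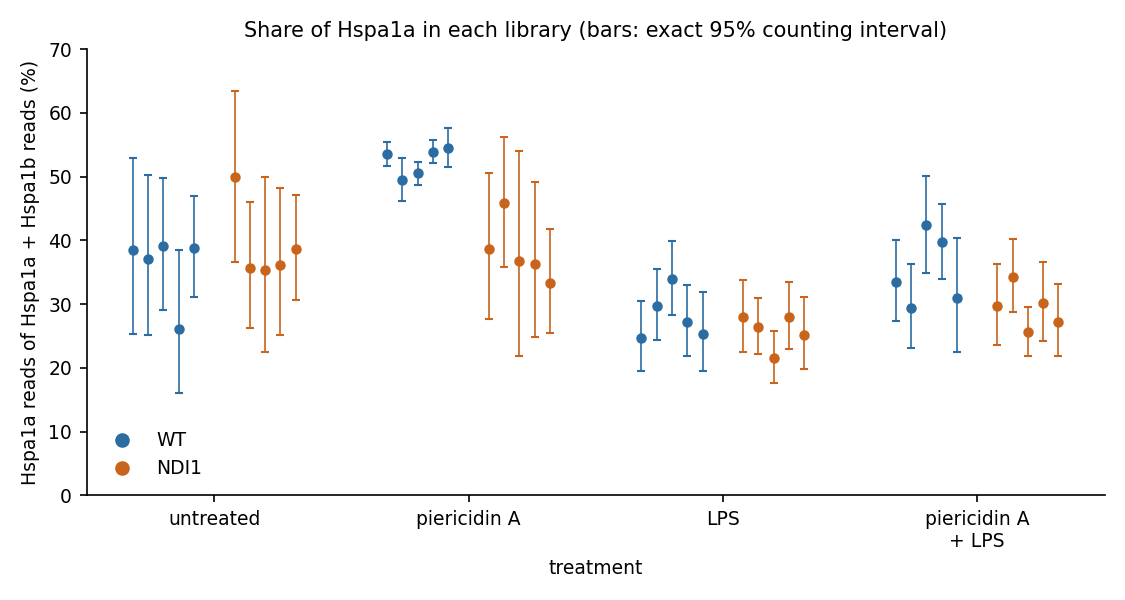
Share of Hspa1a in the reads counted for Hspa1a and Hspa1b, in percent, for each library with its exact 95% binomial interval, which covers counting error only. The 5 WT libraries with piericidin A alone sit between 49.5% and 54.6%, and the 10 libraries with LPS alone sit between 21.5% and 34%.

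Per kilobase of merged exon, untreated WT BMDMs held most Hsp90ab1 (212 ± 24.7 CPM per kb, SD, n = 5) and Hspa8 (116 ± 14.2), the constitutive chaperones. Bag3 (24.2 ± 1.32) and Hsp90aa1 (23.1 ± 2.98) followed and overlapped each other, then Dnajb1 (9.20 ± 0.408) and Hsph1 (4.40 ± 0.578). Hsf1 (2.37 ± 0.233), Hspa1b (1.34 ± 0.521), Hspa1a (0.723 ± 0.356) and Hspb1 (0.269 ± 0.187) closed the order, each overlapping the next. With piericidin A, Hspa1a (29.7 ± 14.6 CPM per kb) and Hspa1b (28.2 ± 13.5) stood at places 4 and 5, where they overlapped Hsp90aa1 (31.6 ± 7.54) and Bag3 (22.9 ± 2.38). Reads of shared windows may be missing from the HSP70 pair, whereas Bag3 has no such windows. Merged exons were much longer than the longest coding transcript for Hsf1 (7099 against 2104 bases), Hsph1 (7266 against 3802) and Hspa8 (4301 against 2394), so the order depended in part on the length used. Per kilobase of that transcript, untreated WT held 252 ± 29.4 CPM per kb of Hsp90ab1 and 208 ± 25.5 of Hspa8, which then overlapped. Hsp90aa1 (27.7 ± 3.58) came before Bag3 and overlapped it, and Dnajb1 (9.84 ± 0.437), Hsph1 (8.41 ± 1.10) and Hsf1 (7.99 ± 0.786) each overlapped the next, with Hsf1 above Hspa1b without overlap. The places of Hspa1a and Hspa1b with piericidin A were the same under both lengths.

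A wider list of 59 further chaperones, co-chaperones, heat shock factors and known HSF1 targets held 48 tested genes. With piericidin A in untreated WT, 6 of these rose and 1 fell, a share close to the 14.8% of all tested genes that were called. Their median log2 fold change was 0.14, against −0.00 over all tested genes. The genes that rose were Zfand2a (0.66, edgeR adjusted p = 0.0006), an arsenite-inducible proteasome-associated protein, Ier5 (0.71, adjusted p = 0.0013), an immediate early gene that acts on HSF1, Dnajb6 (0.66, 0.0009), an HSP40, Hspe1 (0.60, 0.0051), the mitochondrial HSP10, and the chaperonin subunits Cct4 (0.41, 0.042) and Cct7 (0.33, 0.039). Zfand2a went from 80.4 to 125 CPM untreated to 135 to 195 CPM without overlap. Ppid, an HSP90-binding cyclophilin, fell (−0.39, adjusted p = 0.035). Of the 9 other HSF1 targets in the list 2 passed, and of the 14 tested J proteins and HSP70 co-chaperones 1 passed. With the mouse as a block 18 of the 48 passed, in a fit that called 34.2% of all genes. Without mouse 496 the count was 3 (6.65% of all genes were called), without 449 it was 4 (9.91%) and without 520 it was 4 (7.44%). In NDI1 cells 0 of 48 passed.

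Beside these lists, 8 of 8 genes of the ATF4 stress pathway rose with piericidin A in untreated WT (median log2 fold change 1.33, against 14.8% of all genes called). Of 11 ER chaperones and unfolded protein response genes 1 rose (Herpud1, 0.82, edgeR adjusted p = 0.023), and of 9 mitochondrial chaperones and proteases 1 rose (Trap1, 0.32, adjusted p = 0.017), shares near that background. Hspe1 stood in the list of HSF1 targets and was not counted among the mitochondrial genes. These lists were also chosen with earlier results known.

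With LPS in WT 24 genes of the wider list rose and 11 fell of the 48 tested, where 62.5% of all genes were called (median log2 fold change 0.38, against −0.01 over all genes), and in NDI1 23 rose and 10 fell, where 62.7% were called. With library totals alone 6 were called higher and 30 lower in WT, and 5 higher and 31 lower in NDI1 (81% and 80.8% of all genes were called), and the sign of the log2 fold change turned for 23 of the 48 genes in WT and 22 in NDI1. Dnaja2, an HSP40 partner of HSP70, went from 147 ± 16.8 to 659 ± 145 CPM in WT (SD, n = 5; log2 fold change 2.17, and 1.37 with library totals alone). Dnaja1, a second HSP40 (1.76), the HSP70–HSP90 adaptor Stip1 (1.58), the HSP90 immunophilin Fkbp5 (1.68) and the Siah1-interacting protein Cacybp (1.55) also rose under both scalings. Zfand2a fell from 102 ± 19.1 to 28.3 ± 3.89 CPM (−1.85), as did the HSP70 gene Hspa2 (−0.63), under both scalings. All 8 subunits of the cytosolic chaperonin TRiC rose in WT with TMM scaling, among them Cct3 (1.09) and Cct8 (0.52), whereas with library totals alone 1 was higher (Cct3, 0.32) and 6 were lower. Ier5 (0.89) and the HSF1-binding protein Hsbp1 (0.38) rose with TMM scaling. With library totals alone Hsbp1 was called lower (−0.40, edgeR adjusted p = 0.00026) and Ier5 was not called (0.09, 0.55). Of the 4 tested heat shock factors and HSF1 regulators, 0 were higher and 3 lower in WT with that scaling. Under LPS, piericidin A in WT raised Dnajb4 (0.75, edgeR adjusted p = 0.024), Ahsa1 (0.70, 0.0035) and Ier5 (0.42, 0.047) and lowered Chordc1 (−0.44, 0.014) and Dnaja1 (−0.48, 0.02), among 6 of 48 called in all (16.7% of all genes were called). Without mouse 496 the count was 1 (7.13% of all genes), without mouse 520 it was 2 (7.04%), and with the mouse as a block it was 21 (34.5%).

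**Figure D5:**
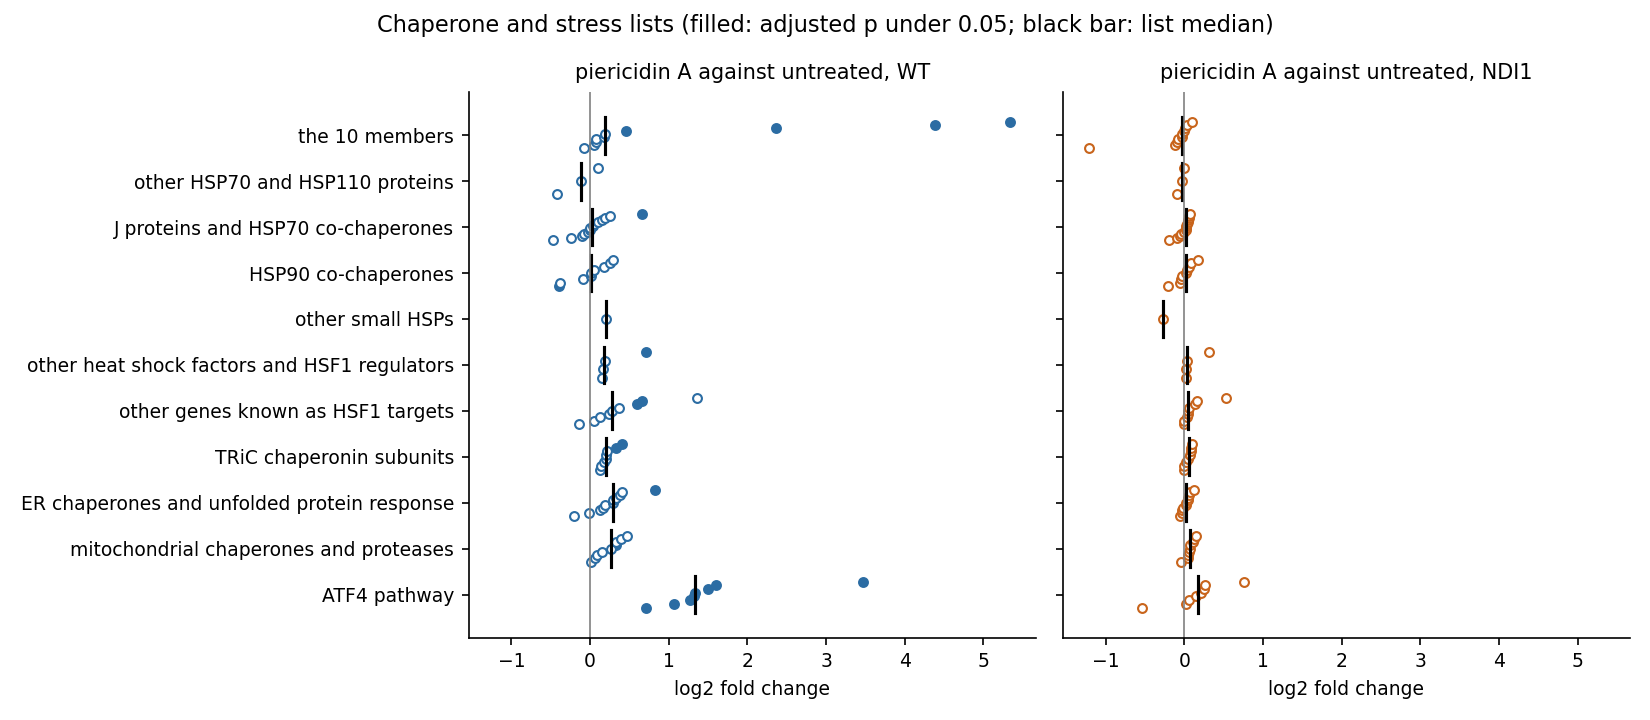
Log2 fold changes with piericidin A in untreated WT and NDI1 BMDMs for the genes of each list. Points are genes, filled where the adjusted p was under 0.05, and black bars are list medians. In WT, Hspa1a and Hspa1b (5.34 and 4.39) lie far above the genes of the wider list, of which 7 of 48 are filled, and in NDI1 no point is filled.

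Other genes with the profile of inducible HSP70 were sought by correlating log2 CPM with that of Hspa1a plus Hspa1b over the 40 libraries, which share mice and treatments. The closest outside the members were Bcl2l1 (Pearson r = 0.884), Sde2 (0.884), Jun (0.884), Rilpl1 (0.867) and Rilpl2 (0.828). Rilpl1 and Rilpl2 were also called higher with piericidin A in LPS-treated WT (log2 fold changes 0.47 and 0.53, edgeR adjusted p = 0.029 and 0.042). Bcl2l1, Sde2 and Jun were not called there, as was so for Hspa1a and Hspa1b. Bcl2l1 was at a mean of 38.0 CPM in untreated WT, 143 with piericidin A and 77.5 with both agents. Among the members, r was 0.634 for Hsp90aa1, 0.535 for Hsp90ab1, 0.513 for Hspa8, 0.496 for Hspb1, 0.368 for Dnajb1, 0.125 for Hsf1, −0.179 for Bag3 and −0.294 for Hsph1. After the means of the 8 groups were removed, the closest genes were Phlda1 (0.657), Trim30b (0.638), Il1b (0.577), Kars (0.561) and Gm16685 (0.553).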

How the data were processed

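Bulk RNA-seq was performed on BMDMs of 5 WT and 5 NDI1 mice under 4 treatments, 40 libraries in all (polyA-selected, 75-cycle reads). Trimming was done with Trimmomatic and alignment to mm10 with STAR, and the authors deposited HTSeq counts of reads in exons, without normalization; the annotation release and strand setting are not given in the sources used here. Counting of this kind can leave out reads that match more than 1 gene, which lowers the counts of near-identical copies. Groups and mouse numbers were taken from the labels. Of 43430 genes, 42462 matched a symbol, and library totals ran from 6950748 to 13552070 counts. The reads carry no molecular identifiers and can be PCR copies, so binomial intervals cover counting error only. A further column of reads given to no library was used in the closing section only, and a column of gene lengths was not used.

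In R 4.3.3, edgeR 4.0.16 kept 11853 genes (filterByExpr), scaled them by TMM and fitted 1 mean per group with the quasi-likelihood model (32 residual degrees of freedom). P-values of each contrast were Benjamini-Hochberg adjusted across the tested genes, and calls had an adjusted p under 0.05. The standard error was the log2 fold change over the square root of F, and intervals are 95% t intervals. The members and gene lists were chosen with earlier results of these data known. All 10 members are named, and from each list at most 2 genes per WT comparison, those with the smallest adjusted p that moved alike in 5 of 5 mice; Herpud1, Trap1 and, for piericidin A with LPS, Dnaja1 were named after their values were seen, and 1 called gene of the wider list is not reported here. Exon lengths and overlaps came from GENCODE M21 and promoters from RefSeq, read with python 3.11.15. Libraries of a mouse were paired by the labels, and 59 of 60 same-mouse pairs had a correlation of deviations from the group means over 0.1 (mean 0.453, against −0.107 for other pairs). Replicate libraries differed by more than counting noise (chi-square per degree of freedom 9.35 to 77.3 over 80 pairs). Alternatives were DESeq2 1.42.0, RLE factors, library totals, no filter, at least 10 counts in every library, the mouse as a block, the compared libraries alone, a log2 threshold of 1, Hspa1a and Hspa1b summed and each mouse left out, and, added after the data were seen, mice 496 and 503 left out together and lengths of the longest coding transcript. The fits were tested on simulated data.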

Additional observations from a re-analysis of the deposited data

Results flagged for a closer look

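The effect of piericidin A without LPS differed between the genotypes for inducible HSP70, by −5.453 on the log2 scale for Hspa1a and −4.472 for Hspa1b (NDI1 minus WT, edgeR adjusted p = 1.3e-08 and 4e-07). The LPS effect in WT was changed by piericidin A by −5.26 for Hspa1a and −4.832 for Hspa1b (edgeR adjusted p = 5.9e-09 and 1.3e-08). Hsp90aa1 in NDI1 BMDMs with both agents was at 159.3 CPM in mouse 503, apart from the other 4 libraries at 129.3 to 133.3 CPM. Among the 80 groups of member and treatment tested on the log2 scale it was the one sample so far from its group, and chance alone sets about 1 in 20 such groups apart. On the CPM scale Hsp90aa1 in untreated WT was the other, at 111 CPM in mouse 496 against 80.2 to 88.1 CPM in the other 4 libraries. Mouse 503 was also the NDI1 mouse with the highest neutrophil marker sum (815 CPM in that library), and the part of this in its Hsp90aa1 level was not tested. Reads that the sequencer gave to no library held 773 reads of Hspa1a and Hspa1b among 29104648 counted reads, a level of 26.6 CPM, against 41.2 CPM over the pooled libraries.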

How the results depend on the processing

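Hspa1a and Hspa1b kept their direction and their calls for piericidin A in untreated WT, for its difference between genotypes and for LPS under the 19 alternatives that gave each a value (log2 fold changes of 5.01 to 5.80 and 4.21 to 4.78 in untreated WT, adjusted p at most 0.00014 and 0.00017). The minimum of 10 counts in every library, the compared libraries alone and leaving out mouse 496 removed Hspb1 from the comparison of piericidin A in untreated WT. With library totals alone the log2 fold changes with LPS turned for Hspa8 (−0.0016 in WT, −0.020 in NDI1), Dnajb1 (−0.38, −0.52), Hsp90aa1 (−0.17, −0.21) and Hsp90ab1 (−0.52, −0.48), since the median of all genes moved by −0.778 and −0.77. That scaling changed the share of called genes that were higher from 46.7% to 58.8% for piericidin A in LPS-treated WT, from 13.3% to 32.9% for the genotype difference without LPS, from 54.5% to 79.8% for the change of the LPS effect in WT and from 44.7% to 72.7% for NDI1 against WT with piericidin A, with median shifts of at most 0.187.

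The cause of the other changes in counts was not tested. With a log2 threshold of 1, 3 members were called for LPS in each genotype (32.4% of all genes in WT, 32.3% in NDI1). Of the wider list that threshold left 10 for LPS in WT, 9 in NDI1 and 0 for piericidin A with or without LPS in WT. It left 3 members for piericidin A in untreated WT (3.21% of all genes). Hspb1 was among these 3, under the limit set by the filter on low counts. With only the compared libraries, 2 members were called for piericidin A in untreated WT (13.5% of all genes) and 2 for NDI1 against WT with piericidin A (4.31%), with 4, 1 and 1 of the wider list for piericidin A in untreated WT, in LPS-treated WT (8.57%) and for the genotype difference without LPS (1.78%). With no filter 4 of the wider list were called for piericidin A in untreated WT (5.05%). DESeq2 called 1 member for piericidin A in LPS-treated WT (18.6%) and 1 of the wider list for the genotype difference without LPS (2.48%). With the mouse as a block 18 of the wider list were called for piericidin A in untreated WT (34.2%) and 21 in LPS-treated WT (34.5%), with 2 members in the latter. The genotype difference with the block gave 4 members, Hspb1 among them under the same limit, and 3 of the wider list without LPS (8.96%). Under LPS it gave 3 of the wider list (9.51%), and the block changed no other count beyond 1.5 times. Summing Hspa1a and Hspa1b left 1 member for the genotype difference and 1 for the change of the LPS effect in WT, by construction. Without mice 496 and 503, 3 and 0 of the wider list were called for piericidin A in untreated and LPS-treated WT (7.72% and 8.12%), and 2 members for NDI1 against WT with piericidin A (3.89%).

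With each mouse left out, the members called ran from 2 to 4 for piericidin A in untreated WT (2 without 449 or 496, where 9.91% and 6.65% of all genes were called), from 0 to 1 in LPS-treated WT, from 6 to 7 for LPS in WT, from 5 to 7 for LPS in NDI1 and from 2 to 5 for NDI1 against WT with piericidin A (2 without 496, where 5.29% were called). The wider list ran from 3 to 8, from 1 to 6, from 32 to 35 and from 30 to 35 in the first 4 of these, and from 0 to 1 for the genotype difference without LPS (1 without 452 or 453). Depth limits Hspb1, counted at most 33 times in a library.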
